A study of Mus musculus with 8 samples.

Results

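The receptors through which microglia read extracellular nucleotides, with the lysophospholipid receptor Gpr34 and the ectonucleotidase Entpd1, were followed in aged forebrain of an amyloid mouse model. The 8 genes, P2ry12, P2ry13, P2ry14, P2ry6, Gpr34, P2rx4, P2rx7 and Entpd1, were taken by name and found through their Ensembl identifiers among the 56748 rows of the count table. The mice were TgCRND8 transgenics (Tg), which overexpress the amyloid precursor protein (APP), and non-transgenic littermates (NTg), all aged 18 months, with 4 libraries of each genotype and no treatment in either. As background, TgCRND8 carries human APP with familial Alzheimer mutations under the hamster prion promoter, which is active above all in neurons, and forms plaques early in life. The RNA came from pulverised frozen forebrain of 1 hemisphere, a mixture of all its cells, in which more microglia and more RNA per microglial cell cannot be told apart. The question is whether these genes differ between Tg and NTg forebrain, and each fold change is Tg over NTg.

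ATP and ADP leaking from stressed or injured cells act on microglia through P2Y receptors, which are coupled to G proteins, and through P2X receptors, which are cation channels opened by ATP. P2ry12 is the receptor by which resting microglia sense ADP and send processes towards its source, and is widely used as a marker of the resting state. Ectonucleotidases such as Entpd1 (CD39) break ATP and ADP down and so end the signal, and the adenosine that finally forms acts on receptors of its own.

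The 8 libraries held 57129090 to 65242741 counts each, and 21588 genes were abundant enough to test, all 8 of the genes followed here among them. App, the check of the genotype, stood at 2532 to 2980 CPM (reads scaled so that library sizes match) in Tg and 1390 to 1623 CPM in NTg. Tg replicate 1 was the Tg library nearest to NTg in microglial markers: 12 of them, with none of the 8 genes among them, summed to 373, 547, 559 and 544 CPM in Tg replicates 1 to 4, against 366, 316, 333 and 278 CPM in NTg replicates 1 to 4. Results are therefore also given without that library. Red blood cell markers stood apart as well, with sums of 3003, 489, 732 and 448 CPM in Tg replicates 1 to 4, against 1282 to 3271 CPM in NTg. The labels number the replicates without saying that each is a separate animal, so p-values measure the spread between these libraries.

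Of the 8 genes, 7 had a higher mean in Tg and 1, P2ry14, a lower one. The highest fold was that of Gpr34, at 1.70-fold, and the lowest among the other higher ones was that of P2rx4, at 1.14-fold. At a false discovery rate (FDR) of 0.05 the quasi-likelihood test of edgeR called 0 of the 8, where it called 0.0139% of all genes tested, and limma-voom also called 0. DESeq2 called 1, Gpr34, higher in Tg, where it called 1.23% of all genes higher. At an unadjusted edgeR p under 0.05, 6 of the 8 were higher and 0 lower, against 4.68% of all genes higher and 2.68% lower. In 3 of the 8 (P2ry12, Gpr34 and P2rx4) the lowest Tg library exceeded the highest NTg library, against 2.62% of all genes, and in 0 the highest Tg library was below the lowest NTg library, against 1.58%. The median log2 fold change was 0.36 over the 8 genes, -0.0024 over all genes tested and 0.61 over the 12 microglial markers. Without Tg replicate 1 edgeR called 2 of the 8 higher, Gpr34 and P2ry13, where it called 1.26% of all genes higher. That fit also called 7 of the 12 microglial markers higher, but these markers were the ground for leaving the library out, so their calls are no independent result. The same limit holds for Gpr34 and P2ry13, since Tg replicate 1 was the lowest Tg library in 7 of the 8 genes, these 2 included. Lower in Tg it called 4 of 5 red blood cell genes and the endothelial gene Flt1, where it called 38 of all 21884 genes lower. The 3 Tg libraries left in it had red blood cell sums of 448 to 732 CPM, against 1282 to 3271 CPM in NTg, and the part of this difference in the calls was not tested.

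**Figure D1:**
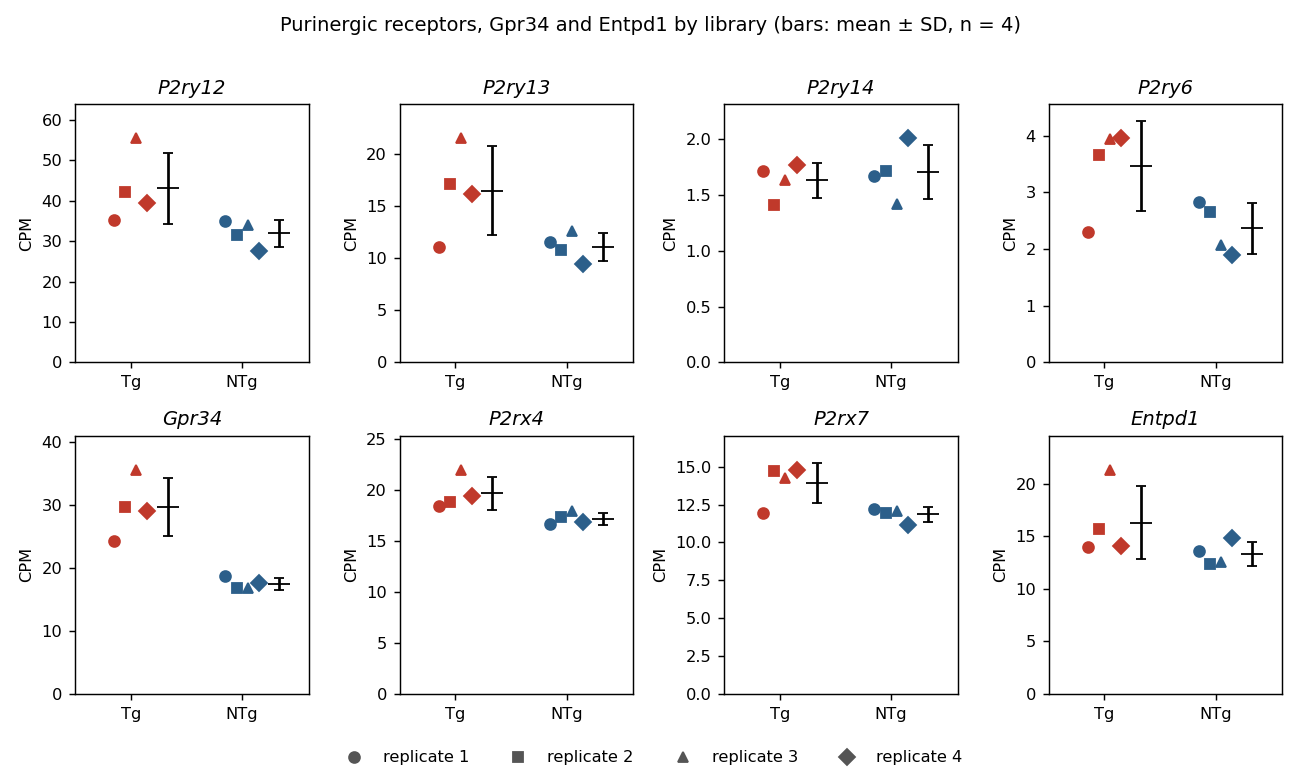
CPM of the 8 genes in each library, with Tg left of NTg, 1 marker shape per replicate number, and the mean ± SD (n = 4) beside each group. Gpr34 lies at 24.3 to 35.6 CPM in Tg and 16.8 to 18.7 CPM in NTg with no overlap, and P2ry14 overlaps between the genotypes.

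P2ry12, P2ry13 and P2ry14 are sister genes that lie near each other on chromosome 3, on the strand opposite to Med12l and within its span. P2ry12 and P2ry13 bind ADP and P2ry14 binds UDP-glucose, and each is coupled to inhibitory G proteins. Since P2ry12 and P2ry13 had higher means in Tg and P2ry14 did not, the promoter windows of the sisters are shown side by side. Each runs from 250 bases before the start site to 50 after it, on the minus strand of GRCm38.p6 as RefSeq gives it. Capitals mark AGGAAG, the core that the myeloid factor PU.1 favours, searched on both strands as AGGAAG and CTTCCT with overlaps kept.
P2ry12 (chr3:59262936-59263235): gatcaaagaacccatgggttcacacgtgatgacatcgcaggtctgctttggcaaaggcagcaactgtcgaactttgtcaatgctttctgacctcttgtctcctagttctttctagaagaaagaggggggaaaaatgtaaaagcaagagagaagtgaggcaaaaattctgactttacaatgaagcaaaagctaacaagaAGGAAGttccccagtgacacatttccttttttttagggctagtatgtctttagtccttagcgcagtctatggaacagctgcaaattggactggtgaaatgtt
P2ry13 (chr3:59210833-59211132): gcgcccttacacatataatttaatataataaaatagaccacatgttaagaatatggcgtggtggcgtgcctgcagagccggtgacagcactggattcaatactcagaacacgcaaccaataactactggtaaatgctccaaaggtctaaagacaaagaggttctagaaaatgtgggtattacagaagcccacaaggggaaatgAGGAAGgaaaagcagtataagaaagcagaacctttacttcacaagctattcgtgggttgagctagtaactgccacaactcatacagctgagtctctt
P2ry14 (chr3:59153443-59153742): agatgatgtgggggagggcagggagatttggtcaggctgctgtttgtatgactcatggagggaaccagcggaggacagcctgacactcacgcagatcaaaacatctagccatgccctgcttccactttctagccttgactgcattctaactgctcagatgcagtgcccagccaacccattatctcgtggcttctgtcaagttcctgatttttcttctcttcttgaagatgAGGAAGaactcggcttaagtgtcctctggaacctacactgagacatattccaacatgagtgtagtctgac
The word begins 52 bases before the start site in P2ry12, 47 before it in P2ry13 and 20 before it in the P2ry14 window shown, on the strand of the gene each time. P2ry14 has 3 further windows in the table, and none of those holds it. The word occurs in 35.4% of the 32851 windows of this length, and in 5 of the 11 windows of the 6 genes that have one (Gpr34 and P2ry6 were not matched). A match of these letters is a description of the sequence and not a measured binding site.

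P2ry12 was at 35.3, 42.1, 55.5 and 39.4 CPM in Tg replicates 1 to 4, against 34.9, 31.5, 33.9 and 27.4 CPM in NTg replicates 1 to 4. The genotypes did not overlap, but Tg replicate 1 and NTg replicate 1 were separated by less than 1 CPM, and Tg replicate 3 lay well above the other Tg libraries. The mean was 43.1 ± 8.73 CPM in Tg and 31.9 ± 3.30 CPM in NTg (SD, n = 4 each). On the log2 scale the fold change was 0.43 (SE 0.13, edgeR adjusted p = 0.353). It was 0.29 without Tg replicate 3 (edgeR adjusted p = 0.474) and 0.52 without Tg replicate 1 (edgeR adjusted p = 0.110). Its mean was higher in Tg under all 15 other settings tried, with log2 fold changes of 0.29 to 0.52.

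P2ry13, the second ADP receptor of microglia, was at 11.1, 17.2, 21.6 and 16.2 CPM in Tg replicates 1 to 4, against 11.6, 10.8, 12.6 and 9.46 CPM in NTg replicates 1 to 4. Tg replicates 2, 3 and 4 lay above every NTg library, while Tg replicate 1 lay inside the NTg range. Means were 16.5 ± 4.29 CPM in Tg and 11.1 ± 1.33 CPM in NTg (SD, n = 4 each), a log2 fold change of 0.57 (SE 0.18, edgeR adjusted p = 0.358). Without Tg replicate 1 it was 0.72 (SE 0.12) and passed the test (edgeR adjusted p = 0.0253). Without Tg replicate 3, the highest library, it was 0.42 (edgeR adjusted p = 0.549). Tg replicate 1 was singled out for its low microglial markers and was the lowest Tg library in 7 of the 8 genes, so that leaving it out raises their fold changes.

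P2ry14, the UDP-glucose receptor, was scarce. It was at 1.72, 1.41, 1.63 and 1.77 CPM in Tg replicates 1 to 4, against 1.67, 1.72, 1.42 and 2.01 CPM in NTg replicates 1 to 4. The groups overlapped, and the log2 fold change was -0.06 (95% interval -0.38 to 0.25, edgeR adjusted p = 0.975). This interval overlaps those of its sisters, which were 0.14 to 0.73 for P2ry12 and 0.18 to 0.97 for P2ry13, and the genes were not tested against each other. Its libraries held 80 to 114 counts. The lowest count, 80, has an exact 95% Poisson interval of 63.4 to 99.6, which covers counting error only.

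P2ry6, the receptor for UDP that in microglia is tied to phagocytosis, was at 2.29, 3.67, 3.94 and 3.96 CPM in Tg replicates 1 to 4, against 2.84, 2.65, 2.08 and 1.89 CPM in NTg replicates 1 to 4. Tg replicates 2, 3 and 4 stood close together above all NTg libraries, and Tg replicate 1 fell within the NTg range. This was a log2 fold change of 0.55 (SE 0.20, edgeR adjusted p = 0.517), and without Tg replicate 1 it was 0.70 (edgeR adjusted p = 0.0844). It was measured from 107 to 231 counts per library.

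Gpr34, a receptor for lysophosphatidylserine that is strongly enriched in microglia and is related to the P2Y receptors, had the largest fold change of the 8 genes. It was at 24.3, 29.6, 35.6 and 29.1 CPM in Tg replicates 1 to 4, against 18.7, 16.8, 16.8 and 17.6 CPM in NTg replicates 1 to 4. Every Tg library lay above every NTg library, Tg replicate 1 included, and the NTg libraries differed from each other by less than 2 CPM. The log2 fold change was 0.76 (SE 0.10, 95% interval 0.53 to 0.99), and edgeR gave an adjusted p of 0.0723, just outside the threshold. By unadjusted p, Gpr34 stood at place 8 of the 21588 genes tested. DESeq2 gave an adjusted p of 6.20e-08 for a log2 fold change of 0.76, and edgeR without Tg replicate 1 an adjusted p of 0.00156 for 0.85. Tg replicate 1 was the lowest Tg library for Gpr34, so leaving it out raises the fold change, and that p is no independent result. The exact two-sided permutation test of the CPM gave p = 0.0286 (n = 4 each), the smallest that 4 against 4 libraries allow. P2ry12 and P2rx4, which also did not overlap, gave the same value in that test, so it does not set Gpr34 apart from them.

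**Figure D2:**
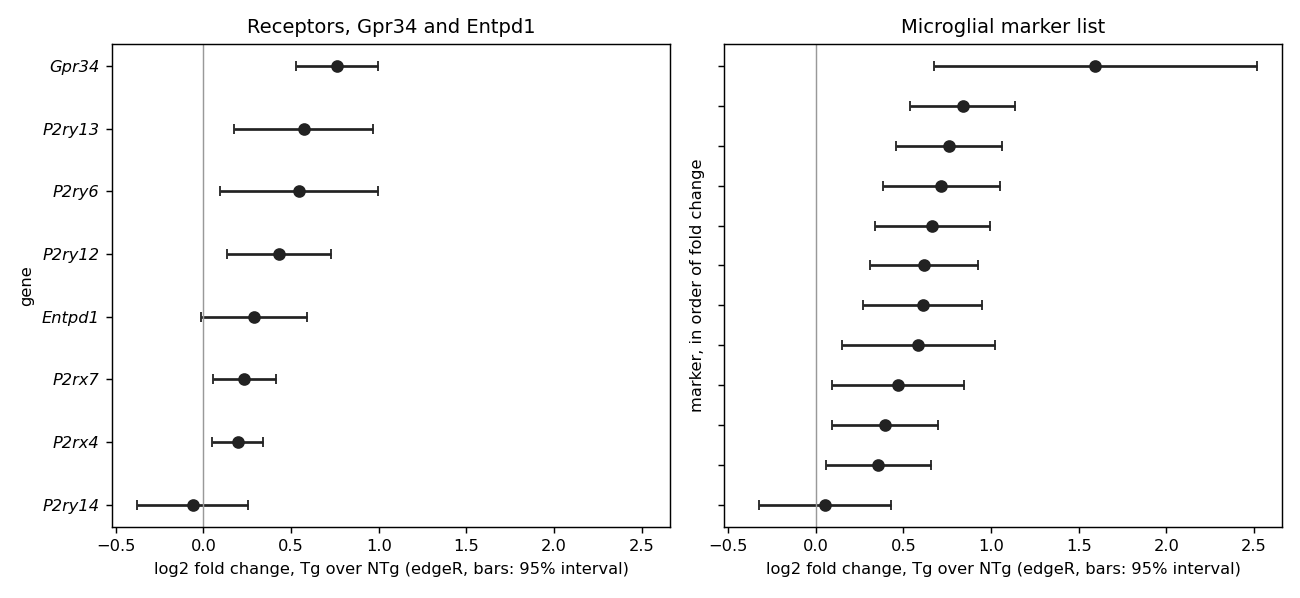
Log2 fold change, Tg over NTg, with its 95% interval from edgeR, for the 8 genes (left) and the 12 microglial markers (right), on 1 scale. The markers are drawn in order of fold change and not named, with a median of 0.61. Gpr34, at 0.76, lies above that median, while P2rx4 and P2rx7, at 0.19 and 0.23, lie below all but the lowest of the 12 markers.

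The 2 ATP-gated channels differed by less. P2rx4, a channel of microglia and other cells that also acts in lysosomes, was at 18.5, 18.8, 22.0 and 19.4 CPM in Tg replicates 1 to 4, against 16.7, 17.3, 17.9 and 16.8 CPM in NTg replicates 1 to 4. The groups did not overlap, although the lowest Tg and the highest NTg library were about 0.5 CPM apart. Its log2 fold change was 0.19 (SE 0.07, edgeR adjusted p = 0.439). P2rx7, which opens at high ATP and feeds the NLRP3 inflammasome, was at 12.0, 14.7, 14.3 and 14.8 CPM in Tg replicates 1 to 4, against 12.2, 11.9, 12.1 and 11.2 CPM in NTg replicates 1 to 4. Tg replicate 1 lay within the NTg range and the other Tg libraries above it. The log2 fold change was 0.23 (SE 0.08, edgeR adjusted p = 0.451), and without Tg replicate 1 it was 0.30 (edgeR adjusted p = 0.0720). The channels are neighbours on chromosome 5, and their ratio within a library did not separate the genotypes: log2 P2rx4 over P2rx7 was 0.50 ± 0.15 in Tg and 0.53 ± 0.06 in NTg (SD, n = 4 each; exact two-sided permutation p = 0.686).

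Entpd1 (CD39), which removes phosphate from ATP and ADP and is carried by microglia and by blood vessels, was at 13.99, 15.7, 21.4 and 14.1 CPM in Tg replicates 1 to 4, against 13.6, 12.4, 12.6 and 14.9 CPM in NTg replicates 1 to 4. The groups overlapped, with Tg replicates 1 and 4 below NTg replicate 4, and Tg replicate 3 alone stood far above the rest. The log2 fold change was 0.29 (95% interval -0.02 to 0.59, edgeR adjusted p = 0.706), and 0.13 without Tg replicate 3. Endothelial markers, from the other cells known to carry Entpd1, went the other way. All 8 had lower means in Tg (median log2 fold change -0.31) and summed to 136 to 197 CPM in Tg and 185 to 224 CPM in NTg. Their part in the Entpd1 value was not tested.

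Divided by exon length, P2ry12 was the most abundant of the 8 transcripts and P2ry14 the least in both genotypes. The levels in Tg were 16.9 ± 3.43 CPM per kilobase for P2ry12, 14.2 ± 2.22 for Gpr34 and 6.53 ± 1.70 for P2ry13, against 12.5 ± 1.30, 8.36 ± 0.44 and 4.39 ± 0.53 CPM per kilobase for the same genes in NTg (SD, n = 4 each). The means of P2ry12 and Gpr34 differed in Tg by less than the SD of P2ry12, and in NTg by more than the SD of either. All genes were measured in the same libraries, so an SD between libraries does not test the order of 2 genes. Within a library and before division by length, log2 Gpr34 over P2ry12 ran from -0.64 to -0.44 in Tg and from -1.01 to -0.64 in NTg. Entpd1, P2rx4 and P2rx7 came next at 2.92 ± 0.62, 2.80 ± 0.23 and 2.33 ± 0.22 CPM per kilobase in Tg, against 2.39 ± 0.21, 2.45 ± 0.08 and 1.99 ± 0.08 CPM per kilobase in NTg, and the first pair did not differ beyond their spread in either genotype. P2ry6 was at 1.20 ± 0.27 CPM per kilobase in Tg and 0.82 ± 0.16 in NTg. P2ry14 was at 0.15 ± 0.01 CPM per kilobase in Tg and 0.15 ± 0.02 in NTg, over annotated exons that are the longest of the 8, at 11059 bases together. The lengths are those of all annotated exons of a gene joined, which need not be the transcript these cells make.

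Each of the 8 genes was also set against the 12 microglial markers of the same library. In all 12 ratios were tested, these 8 and 4 between the genes themselves, and 0 passed after adjustment (smallest adjusted p = 0.229). With 4 against 4 libraries the exact p cannot go below 0.0286, so at least 7 of the 12 ratios would have to reach it before any adjusted p fell under 0.05, and the adjusted values say little either way. For Gpr34, P2ry13 and P2ry6 the log2 ratio to the markers differed between Tg and NTg by 0.11, -0.10 and -0.11 (exact two-sided permutation p = 0.400, 0.400 and 0.286). For P2rx7, P2rx4 and P2ry14 it differed by -0.42, -0.45 and -0.70, lower in Tg (exact two-sided permutation p = 0.0286, 0.0571 and 0.0857). P2rx7 was the only one of the 8 in which all 4 Tg libraries lay below all 4 NTg libraries, at -1.16 to -0.86 in Tg and -0.82 to -0.42 in NTg. P2ry12 had a difference of -0.23 and Entpd1 of -0.38 (exact two-sided permutation p = 0.143 and 0.200). The marker mean was itself higher in every Tg library than in any NTg library. Its lowest Tg value was 4.449 (replicate 1) and its highest NTg value 4.436 (replicate 1), in log2 CPM. A gene that rises less than the markers thus has a lower ratio in Tg. P2rx7, P2rx4 and P2ry14 themselves had log2 fold changes of 0.23, 0.19 and -0.06. How often other genes give such ratios was not tested. Between members, log2 Gpr34 over P2ry12 was -0.53 ± 0.08 in Tg and -0.86 ± 0.16 in NTg (SD, n = 4 each; exact two-sided permutation p = 0.0571, adjusted p = 0.229), and 3 of the 4 Tg libraries exceeded the highest NTg library. P2ry13 over P2ry12 and P2ry6 over P2ry12 differed by 0.12 and 0.11 (exact two-sided permutation p = 0.229 and 0.514).

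**Figure D3:**
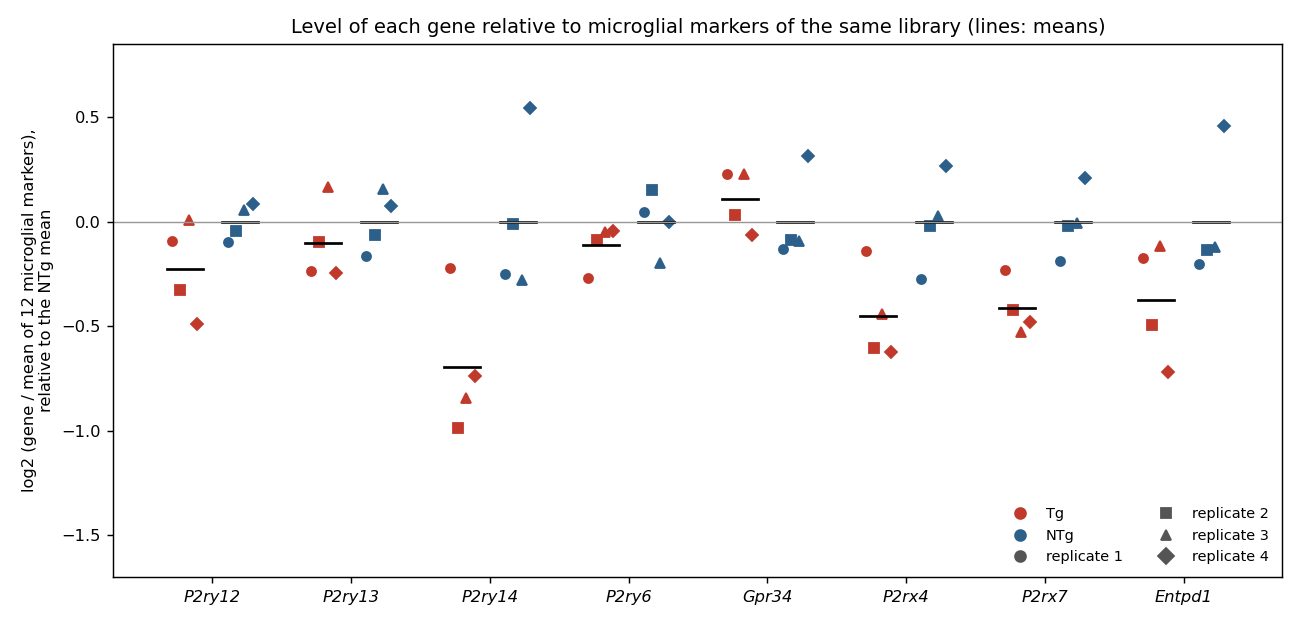
Log2 level of each gene relative to the mean of 12 microglial markers in the same library, drawn relative to the NTg mean, with Tg left of NTg, 1 marker shape per replicate number and lines at the group means. Mean differences between Tg and NTg run from -0.70 for P2ry14 to 0.11 for Gpr34, and NTg replicate 4 is the highest library for several genes.

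Among the microglial markers themselves, all 12 had higher means in Tg, 11 with an unadjusted edgeR p under 0.05 (4.68% of all genes). DESeq2 called 6 of them (1.23% of all genes), and edgeR and limma-voom called 0. Markers of other cells known to carry some of these receptors were summed as well. Border macrophage markers summed to 8.59 to 16.3 CPM in Tg and 9.41 to 14.9 CPM in NTg. Platelet markers summed to 3.91 to 4.97 CPM in Tg and 3.19 to 4.26 CPM in NTg. Monocyte markers summed to 11.3 to 14.01 CPM in Tg and 9.56 to 19.3 CPM in NTg, and T cell markers to 1.53 to 3.41 CPM in Tg and 1.18 to 5.12 CPM in NTg. None of the markers in these lists was at 0 over all libraries. Slc17a7, the glutamate transporter of excitatory cortical neurons, was at 625 ± 119 CPM in Tg and 623 ± 58.3 CPM in NTg (SD, n = 4 each).

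The rest of the nucleotide pathway was measured in 8 lists of 54 genes, of which 52 were tested. With adjustment over all genes edgeR called 0 of them, where it called 0.0139% of all genes, and limma-voom called 0. DESeq2 called 2, Nlrp3 and Pik3cg, both higher in Tg, against 1.23% of all genes. At an unadjusted edgeR p under 0.05, 5 were higher and 3 lower, against 4.68% and 2.68% of all genes, and the median log2 fold change was 0.05.

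Genes downstream of P2rx7 had the highest median log2 fold change of these lists, 0.47, below the 0.61 of the microglial markers. Of its 8 genes 6 were higher in Tg, 3 of them at an unadjusted p under 0.05 (4.68% of all genes). Nlrp3, the sensor of the inflammasome, was at 2.35 ± 0.61 CPM in Tg and 1.16 ± 0.20 CPM in NTg (SD, n = 4 each), with no overlap (log2 fold change 1.01, edgeR adjusted p = 0.129). Gsdmd, whose product forms the pore through which interleukins leave, was at 3.84 ± 0.33 CPM in Tg and 2.97 ± 0.37 CPM in NTg (edgeR adjusted p = 0.395). Pycard, the adaptor, was at 2.95 ± 1.19 CPM in Tg and 1.72 ± 0.70 CPM in NTg (edgeR adjusted p = 0.675). The other 5 had an unadjusted p above 0.05. Means were higher in Tg for the protease Casp1, at 5.11 CPM in Tg and 4.13 CPM in NTg, and for the interleukins Il1a, at 1.33 CPM in Tg and 0.90 CPM in NTg, and Il1b, at 0.58 CPM in Tg and 0.37 CPM in NTg. The interleukin Il18 was at 12.9 CPM in Tg and 13.9 CPM in NTg, and the kinase Nek7 at 57.7 CPM in both.

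Genes through which P2ry12 acts went both ways, with 5 of 8 higher, 3 lower and a median log2 fold change of 0.05. The RNA is that of all forebrain cells, so these values do not describe the pathway in microglia alone. Pik3cg, the G protein-activated PI3 kinase of myeloid cells, was at 6.05 ± 1.21 CPM in Tg and 3.68 ± 0.55 CPM in NTg, with no overlap (log2 fold change 0.72, SE 0.16, edgeR adjusted p = 0.169). Kcnk13 (THIK-1), the potassium channel of microglia that works with P2ry12, was at 10.4 ± 0.47 CPM in Tg and 12.2 ± 1.39 CPM in NTg (edgeR adjusted p = 0.594, log2 fold change -0.22). Its mean thus lay on the other side from that of the receptor, and neither passed the test.

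In the lists of enzymes and receptors around the ligands, with 3 to 10 genes tested in each, edgeR, DESeq2 and limma-voom called 0 genes. Over all genes edgeR called 0.0139%, and DESeq2 called 1.23% higher, so 0 calls in so few genes say little. At an unadjusted edgeR p under 0.05 there was 1 higher and 2 lower in these lists together, against 4.68% and 2.68% of all genes. All 4 genes of the lysophosphatidylserine list had higher means in Tg (median log2 fold change 0.21), with 0 at an unadjusted p under 0.05. Abhd12 and Abhd16a, which degrade and make lysophosphatidylserine, the ligand of Gpr34, were at 217 and 89.3 CPM in Tg, against 214 and 85.3 CPM in NTg. Pla1a, a phospholipase that makes lysophosphatidylserine, was at 1.09 ± 0.23 CPM in Tg and 0.85 ± 0.26 CPM in NTg, and Gpr174, another receptor for it, at 0.25 ± 0.15 CPM in Tg and 0.19 ± 0.03 CPM in NTg (SD, n = 4 each). Of the other ectonucleotidases, 3 of 10 were higher and 7 lower (median log2 fold change -0.05), and the alkaline phosphatase Alpl was at 6.25 ± 0.73 CPM in Tg and 7.61 ± 0.66 CPM in NTg (edgeR adjusted p = 0.555). Of 8 genes for adenosine reception and handling, 4 were higher and 4 lower (median 0.03), and the adenosine receptor Adora3 was at 0.86 ± 0.17 CPM in Tg and 0.58 ± 0.17 CPM in NTg (edgeR adjusted p = 0.630). Of the other P2X subunits, P2rx5 was lower, at 2.41 ± 0.57 CPM in Tg and 3.25 ± 0.39 CPM in NTg (edgeR adjusted p = 0.579), in a list with a median of -0.05. Of the other P2Y receptors, P2ry1 was at 6.88 CPM in Tg and 6.59 CPM in NTg, and P2ry2 at 1.05 CPM in Tg and 0.77 CPM in NTg, while P2ry4 and P2ry10 were too scarce to test. Among genes for nucleotide release, with a median of 0.05, the connexin Gja1 was at 225 CPM in Tg and 221 CPM in NTg, and Panx2 at 104 CPM in Tg and 112 CPM in NTg.

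**Figure D4:**
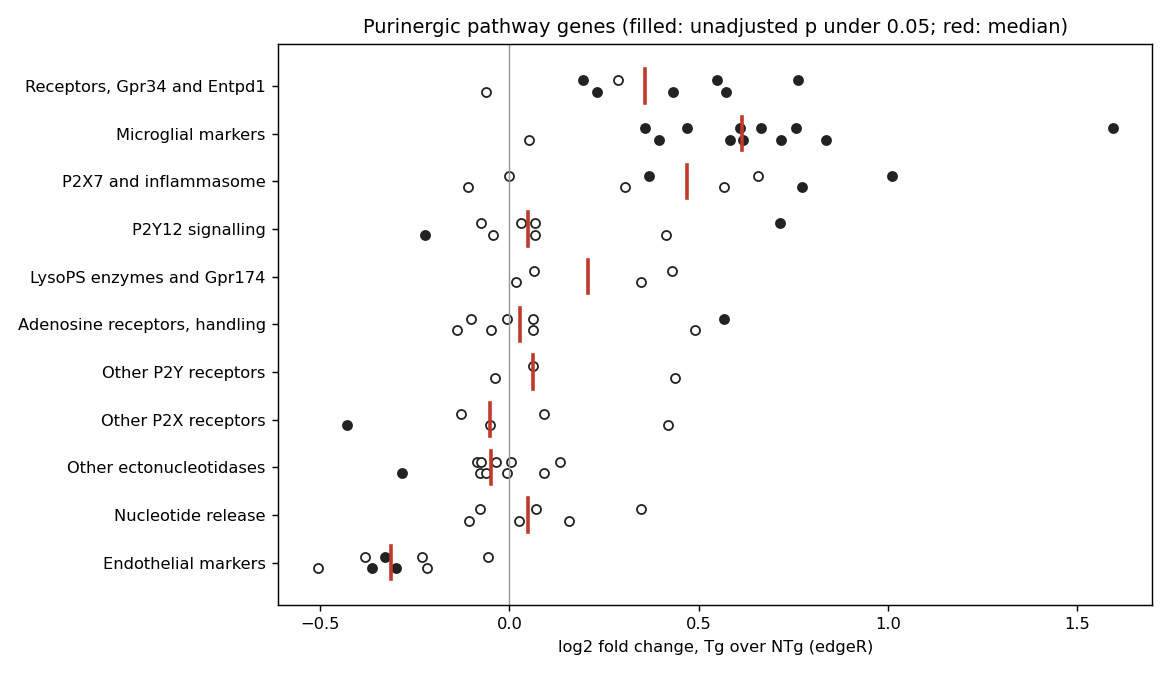
Log2 fold change, Tg over NTg, of every tested gene in the lists named at the left, with filled points at an unadjusted edgeR p under 0.05 and a red line at the list's median. The 8 genes followed here have a median of 0.36 and the microglial markers of 0.61, while the lists of other P2X receptors, other ectonucleotidases and nucleotide release sit near 0.

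A list of 10 genes that surround or adjoin some of the 8 on the chromosome, not a full set of their neighbours, was also measured: 7 were tested, 4 higher and 3 lower (median log2 fold change 0.02), and edgeR, DESeq2 and limma-voom called 0, with 0 at an unadjusted p under 0.05. Over all genes edgeR called 0.0139%, and at an unadjusted edgeR p under 0.05 4.68% were higher and 2.68% lower. Med12l, which encloses P2ry12, P2ry13 and P2ry14, was at 36.7 ± 4.91 CPM in Tg and 37.7 ± 1.09 CPM in NTg (SD, n = 4 each). Cask, which encloses Gpr34 on the opposite strand, was at 64.4 ± 3.14 CPM in Tg and 66.5 ± 1.39 CPM in NTg. Gpr82 and Gpr171, receptor genes beside Gpr34 or the chromosome 3 sisters, had at most 7 counts in a library. Since the library kit does not mark strand, reads from overlapping exons could count for either gene. In the GENCODE annotation exons of Med12l share 9 bases with those of P2ry12, and Mir8115 shares 119 bases with those of P2rx7. These overlaps do not cover reads from introns of Med12l and Cask, within whose spans P2ry12, P2ry13, P2ry14 and Gpr34 lie. Such reads could count for the enclosed genes, and their part in the values was not tested.

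The genes most like each of the 8 over the 8 libraries, by Pearson's r of log2 CPM among 13986 genes, are named here. The pairs share genotype and libraries, so each r is a description only. Closest to Gpr34 were Lcp2 (r = 0.99) and Lyn (r = 0.99), an adaptor and a kinase of leukocyte signalling. Closest to P2ry12 were Tnfaip2 (r = 0.98) and Elk3 (r = 0.96), and closest to P2ry13 were Pik3ap1 (r = 0.98) and Masp1 (r = 0.98). P2ry6 lay nearest to Abhd4 and Otulinl (r = 0.98 for both), and P2rx7 to Bcl3 and Tnfrsf1a (r = 0.99 for both). P2ry14 instead lay nearest to Dcn, which encodes decorin, a matrix protein of connective tissue (r = 0.98), and to E2f6 (r = 0.94). P2rx4 lay nearest to Plaa (r = 0.95) and Plin2 (r = 0.94), and Entpd1 to Eif3a (r = 0.96) and Aig1 (r = 0.95).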

How the data were processed

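The authors deposited 1 table of raw, unnormalized counts by Ensembl gene for 8 libraries (4 Tg, 4 NTg). The build GRCm39 and the tools STAR and DESeq2 are named per the submitters' processing notes, and per the labels' protocols, libraries were made with the TruSeq kit version 2 and read as paired 75-base reads in pools. Which counting tool, annotation and versions were used is not given in the sources used here. Columns were matched to samples by library name, 0 columns belonged to no sample, and symbols were matched by identifier (52073 identifiers, 99.58% of counts).

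Genes were kept by filterByExpr (minimum count 10, minimum total 15), scaled with TMM factors and tested with the edgeR quasi-likelihood test, with Benjamini-Hochberg adjustment over all 21588 genes tested and a threshold of 0.05. DESeq2 and limma-voom were run beside it (R 4.3.3, edgeR 4.0.16, DESeq2 1.42.0, limma 3.58.1). Ratios are differences of log2 CPM (prior count 2) compared by exact two-sided permutation tests, adjusted over the 12 ratios. Promoter windows come from RefSeq (GRCm38.p6), and exon lengths and overlaps from GENCODE M21 on GRCm38, an older build than that of the counts, so no coordinates of the counted genes are given. Library depth puts 1 count at 0.0151 to 0.0178 CPM. Every pair of libraries within a genotype differed by far more than sampling noise (chi-square per degree of freedom 10.0 or more).

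The 8 genes, the pathway and marker lists and the tests were chosen with earlier results of these data known, and the promoter motif after the windows were seen. Pathway genes are named at an unadjusted p under 0.05, or else as the 2 most abundant of a list. Casp1, Il1a, Il1b, Il18, Nek7, Pla1a and Gpr174 fall outside that rule and were added, with their values known, to complete 2 lists. The 2 genes most like each member were named by Pearson's r among genes of at least 1 CPM, without predicted or clone-type symbols. Both edgeR and DESeq2 were tested on simulated data first.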

Additional observations from a re-analysis of the deposited data

Results flagged for a closer look

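In 2 of 40 sets of 4 libraries examined, 1 library stood apart from the other 3 of its genotype. Both were NTg replicate 4 in ratios to the microglial markers, and so share 1 marker mean. Separate sets would be flagged at about 1 in 20, but these sets share libraries, genes and markers. How the count compares with chance therefore cannot be judged. Log2 Gpr34 relative to the markers was 0.24 there and -0.21 to -0.16 in the other NTg libraries. Log2 Entpd1 relative to the markers was -0.0078 there and -0.66 to -0.58 in the other NTg libraries. In that library the microglial marker sum, at 278 CPM, was the lowest of all 8 and the red blood cell sum, at 3271 CPM, the highest. The part of either in these ratios was not tested. Without that library the difference between Tg and NTg was 0.21 for the Gpr34 ratio and -0.22 for the Entpd1 ratio.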

How the results depend on the processing

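Of the 8 genes, 7 kept a higher mean in Tg under all 15 other settings, and P2ry14, never called, was lower in 13 and higher in 2. The edgeR count of members called, 0, was 1 with DESeq2 and 1 with no filter on low counts (Gpr34 each time), and 0 to 2 with each library left out in turn, the 2 being without Tg replicate 1. The count of all genes called, 3, was 345 with DESeq2, 127 with no filter, and 3 to 314 with each library left out, namely 314 without Tg replicate 1, 16 without NTg replicate 1 and 9 without Tg replicate 2. The cause was not tested. By direction, 66.7% of calls were higher in Tg with edgeR, 85.2% with DESeq2 and 92.1% with no filter. With the replicate number as a block, 1 gene and 0 of the 8 were called. Correlations of deviations between same-numbered libraries were 0.07, -0.03, 0.16 and -0.0089, and not every library correlated best with its own number. These values give no sign that the numbers pair the libraries, but they cannot exclude a weak pairing. With 1 library left out, log2 P2rx4 over P2rx7 ran from -0.08 to 0.01 between Tg and NTg, P2ry6 over P2ry12 from 0.0035 (without Tg replicate 4) to 0.21 (without Tg replicate 1), and P2ry13 over P2ry12 from 0.08 (without Tg replicate 4) to 0.21 (without Tg replicate 1). Relative to the microglial markers, Gpr34 ran from 0.06 to 0.21, P2ry13 from -0.19 (without Tg replicate 3) to -0.05 (without NTg replicate 3) and P2ry6 from -0.18 (without NTg replicate 3) to -0.06 (without Tg replicate 1). The adjusted p of Gpr34 ran from 6.20e-08 to 0.351 over these settings. Depth limits P2ry14 and P2ry6 most.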
